A study of Mus musculus with 6 samples.

Results

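Tot2 is a line of mouse myeloid progenitors that grows in granulocyte-macrophage colony-stimulating factor (GM-CSF). It came from an Irf8 knockout animal, and Irf8 encodes a transcription factor that steers progenitors towards monocytes and dendritic cells. The baseline of this line was read from the control-vector cells, which had received the empty retroviral vector MSCV-puro and no added factor. They filled 2 of the 6 arrays of the series, and the members were chosen by the sample titles alone. The other 4 arrays hold Tot2 cells given an IRF8 or a KLF4 vector and were used here to see whether a probe that was dark in control cells could give a signal, to set the gaps between the control arrays beside theirs, and in 1 alternative choice of probe.

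All 3 groups share the Irf8-knockout background, a medium with 20% serum and 5.0 ng/ml GM-CSF, selection in 2 µg/ml puromycin from 48 hr after infection, and harvest on day 4. The control cells were measured in 2 experiments that the design text calls independent, 1 array in each, so replicate 1 and replicate 2 differ in experiment and in slide, and the part of each cannot be told apart. Whether the line is a single clone is not given in the sources used here. Every value below is the log2 intensity of a probe minus the log2 of that array's 75th percentile over all non-control spots, given for replicate 1 and then for replicate 2. A value of 0 is therefore the 75th percentile itself. No test was made, since there is a single group.

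The 26762 probes that could be matched to a gene stood for 20276 genes with a value on both arrays, each represented by its brightest probe. Feature Extraction calls a spot well above background when its signal clears the local background by a set margin. By that call 11952 genes (58.9%) were detected on both arrays, 1675 (8.26%) on 1 array and 6649 (32.8%) on neither, and 8126 (40.1%) lay above the 75th percentile on both. Replicate 2 was the more sensitive array: 55.9% of its probes were well above background against 47.1% for replicate 1, and 1421 of the genes seen on a single array were seen on replicate 2. No spot was saturated, and the lowest signals well above background were -4.32 and -5.31, so values under these have no order. Probes differ in how well they bind, so a rank or a level is that of a probe, not of an amount of RNA, and in whole cultures fewer cells expressing a gene and less RNA per cell cannot be told apart.

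Probes for genes of other tissues show what the call lets through. Of 1313 olfactory and vomeronasal receptor genes, 67 (5.10%) passed the call on both arrays and 4 were above the 75th percentile. By the call on replicate 1, whatever replicate 2 showed, 106 passed, and by the call on replicate 2, whatever replicate 1 showed, 195. Of 39 genes of unrelated tissues, such as those for insulin, casein and muscle creatine kinase, 20 (51.3%) passed the call but only 2 lay above the 75th percentile, Snap25 (3.77 and 3.04) and Mbp (3.28 and 3.44). The call alone therefore takes in dim signal from genes of other tissues, and the count above the 75th percentile is given beside it. The shares over all genes, 58.9% and 40.1%, are those against which each list's shares are to be read.

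**Figure D1:**
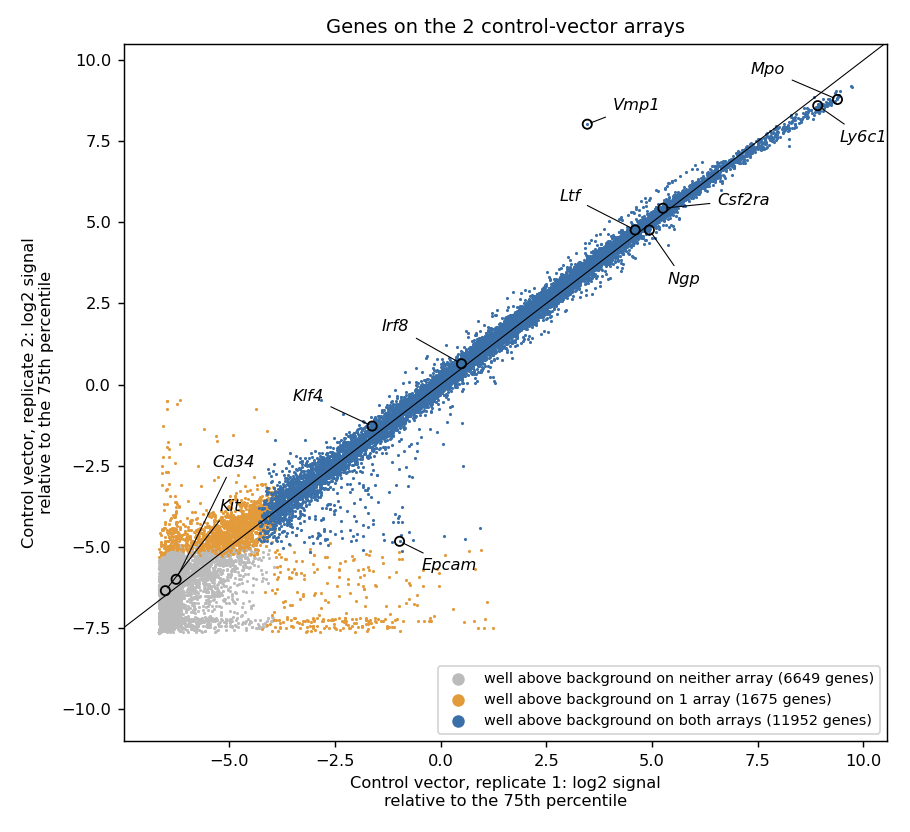
Log2 signal relative to the 75th percentile of each gene's brightest probe on control-vector replicate 1 (horizontal) and replicate 2 (vertical), coloured by the number of arrays on which it was well above background; the line marks equal values and circles mark named genes. Mpo and Ly6c1 lie near the top of both arrays, Irf8 just above 0, Kit and Cd34 among the genes read on neither array, and Vmp1 and Epcam far from the line.

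As background, granulocyte and monocyte precursors pass through a stage at which they fill primary (azurophil) granules with myeloperoxidase and serine proteases, and neutrophil precursors go on to make secondary and tertiary granules with lactoferrin and antimicrobial peptides. PU.1 (Spi1), the C/EBP factors, Runx1, Myb and Gfi1 are known regulators of these granule genes. IRF8 favours the monocyte and dendritic cell fates, and bone marrow of Irf8-deficient mice is known for an excess of granulocytes.

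The first check was of the 4 genes set as markers. Mpo, which encodes myeloperoxidase, read 9.39 and 8.79 and ranked 11 among the 20276 genes. Ly6c1, of the Ly6C surface antigen found on monocytes and their precursors, read 8.92 and 8.60, with a second probe at 7.42 and 7.35. Its relative Ly6c2 had no matched probe, and whether the Ly6c1 probes also read Ly6c2 is not given in the sources used here. Ltf, the gene of lactoferrin, read 4.60 and 4.76, and Ngp, a neutrophil granule protein, 4.94 and 4.76. All 4 markers were far above the 75th percentile on both arrays. Primary granule, secondary granule and Ly6C signals are therefore present together in the bulk RNA. Whether the same cells carry all of them cannot be read from these arrays.

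The promoters of 6 granule genes are shown because they hold the granule genes set as markers (Mpo, Ltf and Ngp) and the main serine proteases stored with Mpo (Ctsg, Elane and Prtn3). Each run is 300 bases from RefSeq (GRCm38.p6), from 250 before to 50 after the annotated start, 5′ to 3′ on the gene's strand, with matches to any of 3 motifs in capitals.

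Mpo, chr11:87793534-87793833, plus strand: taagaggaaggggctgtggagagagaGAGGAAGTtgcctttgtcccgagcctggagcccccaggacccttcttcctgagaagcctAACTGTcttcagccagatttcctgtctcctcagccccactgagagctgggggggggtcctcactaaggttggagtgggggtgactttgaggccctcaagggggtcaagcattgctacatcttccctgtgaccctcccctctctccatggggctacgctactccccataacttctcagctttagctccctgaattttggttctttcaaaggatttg

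Ctsg, chr14:56102525-56102824, minus strand: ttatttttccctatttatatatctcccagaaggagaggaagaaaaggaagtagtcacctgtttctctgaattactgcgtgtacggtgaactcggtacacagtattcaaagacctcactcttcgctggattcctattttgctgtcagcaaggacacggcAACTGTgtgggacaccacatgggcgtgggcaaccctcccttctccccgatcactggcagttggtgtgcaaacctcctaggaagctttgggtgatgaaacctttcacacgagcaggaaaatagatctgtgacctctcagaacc

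Elane, chr10:79886062-79886361, plus strand: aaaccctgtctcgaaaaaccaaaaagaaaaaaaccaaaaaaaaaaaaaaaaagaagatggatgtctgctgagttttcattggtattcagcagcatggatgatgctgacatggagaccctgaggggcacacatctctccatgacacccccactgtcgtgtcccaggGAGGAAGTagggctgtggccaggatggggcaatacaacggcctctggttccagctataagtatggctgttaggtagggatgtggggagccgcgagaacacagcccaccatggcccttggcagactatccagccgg

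Prtn3, chr10:79879417-79879716, plus strand: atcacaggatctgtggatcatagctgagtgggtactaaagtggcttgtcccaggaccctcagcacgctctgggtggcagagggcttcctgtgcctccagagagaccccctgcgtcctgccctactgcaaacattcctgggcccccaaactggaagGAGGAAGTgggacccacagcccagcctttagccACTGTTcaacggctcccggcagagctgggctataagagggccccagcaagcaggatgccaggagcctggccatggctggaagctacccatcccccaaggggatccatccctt

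Ltf, chr9:111019042-111019341, plus strand: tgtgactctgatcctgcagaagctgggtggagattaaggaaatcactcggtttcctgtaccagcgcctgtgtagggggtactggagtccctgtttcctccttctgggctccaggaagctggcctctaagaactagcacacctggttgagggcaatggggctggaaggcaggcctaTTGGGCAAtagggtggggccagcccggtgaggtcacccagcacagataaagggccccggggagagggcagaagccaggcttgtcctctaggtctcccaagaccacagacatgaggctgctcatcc

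Ngp, chr9:110419558-110419857, plus strand: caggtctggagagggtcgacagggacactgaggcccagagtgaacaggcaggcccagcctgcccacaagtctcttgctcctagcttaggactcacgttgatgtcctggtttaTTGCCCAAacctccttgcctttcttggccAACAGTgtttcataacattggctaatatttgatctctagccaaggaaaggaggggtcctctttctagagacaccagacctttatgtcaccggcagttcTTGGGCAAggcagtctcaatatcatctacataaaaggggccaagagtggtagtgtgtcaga

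The motifs searched on both strands were GAGGAAGT for PU.1, TTGCNNAA for C/EBP and AACNGT for Myb, and none overlapped another in these windows. They were picked with the matches in view and are a description of letters, not of binding. GAGGAAGT occurs in 3.20% of the 32851 promoters of the table and was found in Mpo, Elane and Prtn3, where it begins 224, 85 and 95 bases before the start. TTGCNNAA occurs in 10.8% and was found in Ltf once, 75 bases before the start, and in Ngp 2 times, 138 and 11 bases before. AACNGT occurs in 26.1% of promoters and was found in Mpo, Ctsg, Prtn3 and Ngp. The Elane and Prtn3 windows begin 6645 bases apart on chromosome 10.

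The primary granule genes as a group were read almost without exception. Of 24 measured members 23 were well above background on both arrays and 22 were above the 75th percentile (91.7%, against 40.1% of all genes), with a list median of 5.38 against -2.05 for all genes. The neutrophil serine proteases were among them. Ctsg, the gene of cathepsin G, read 9.70 and 9.22 and ranked 2, Elane, of neutrophil elastase, 8.90 and 8.53, and Prtn3, of proteinase 3, 7.46 and 7.29. Both arrays place these beside Mpo, each slightly lower in replicate 2. Srgn, the gene of the proteoglycan serglycin that packs granule proteases, read 8.38 and 8.26. Ms4a3, a membrane protein of granulocyte-monocyte progenitors, read 8.17 and 7.94, and Serpinb1a, an inhibitor of the same proteases, 7.52 and 7.40. The lysosomal membrane gene Cd63 read 7.43 and 7.25. Lyz2, the lysozyme gene of macrophages and granulocytes, read 2.62 and 2.66, and Ctsc, whose product activates the granule proteases, 2.81 and 2.90. Bpi, which encodes a bactericidal protein of primary granules, was the member seen on neither array, with both of its probes at background.

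The later granule programme was present but less complete. Of 46 secondary and tertiary granule genes 35 passed on both arrays, 4 on 1 and 7 on neither, and 30 lay above the 75th percentile (65.2%). S100a9 and S100a8, whose products pair to form calprotectin, read 8.52 and 8.08, and 7.61 and 7.44. Chil3, a chitinase-like protein of neutrophils and macrophages, read 8.34 and 8.23. The cystatin-like Stfa1 read 7.93 and 7.77 and the haptoglobin gene Hp 7.83 and 7.62. Probes of the stefin family may read more than 1 member. Camp, the gene of the cathelicidin peptide, read 7.58 and 7.32 with a second probe at 6.55 and 6.38. Slpi, a protease inhibitor, read 7.10 and 7.14, and Lcn2, which encodes the iron-binding lipocalin 2, 4.52 and 4.68. These genes were alike on the arrays, with none of the 35 more than 0.60 apart.

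Members of the same list that are known from mature neutrophils ran from bright to dark, and some of those named here were chosen after their values had been seen. Ltb4r1, a leukotriene receptor, read 3.78 and 3.89, Cd177, a neutrophil surface antigen, 2.99 and 3.07, and Il1r2, a decoy receptor for interleukin 1, 2.47 and 2.65. Trem1, an activating receptor, read 1.19 and 1.36, and Retnlg, a secreted neutrophil protein, was detected at -0.82 and -0.86. Mmp8, the neutrophil collagenase, gave no signal on either array, and its probe was dark on the other 4 arrays too. Mmp9, a gelatinase of tertiary granules, was above background on replicate 2 alone (-4.26 and -3.87). Cxcr2, the chemokine receptor with which neutrophils leave the marrow, was detected but dim (-2.55 and -2.80). Fpr2, a formyl peptide receptor, was read on neither control array, while its probe was above background on 3 of the other 4 arrays. Mmp25 (a membrane-bound protease of neutrophils), Arg1 and Ptgs2 were also seen on neither. Padi4, the enzyme that citrullinates histones in neutrophils, read -1.85 and -1.77.

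**Figure D2:**
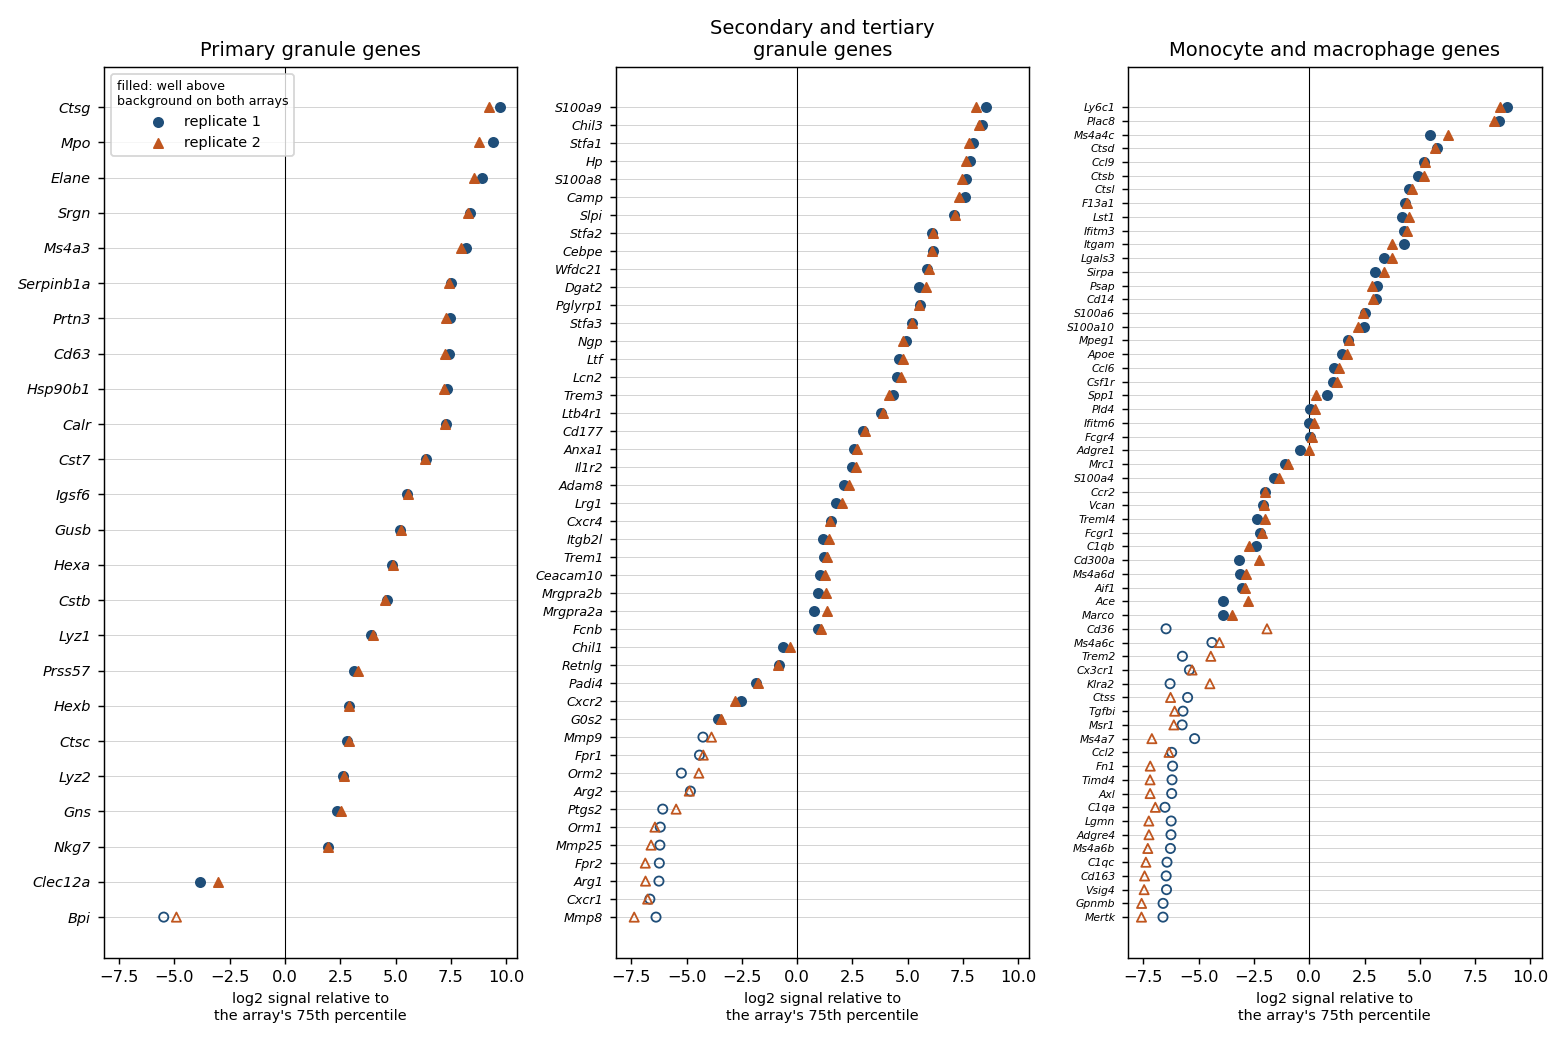
Log2 signal relative to the array's 75th percentile (horizontal) of every measured primary granule gene (left), secondary and tertiary granule gene (middle) and monocyte and macrophage gene (right), with circles for replicate 1 and triangles for replicate 2, filled where both arrays were well above background. Of 24, 46 and 60 genes, 22, 30 and 24 lie above 0 on both arrays.

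The listed granulocyte-monocyte factors were nearly all read. Of 30 members 28 passed on both arrays (93.3%, against 58.9% of all genes) and 25 lay above the 75th percentile (83.3%, against 40.1%). The list median was 2.61 against -2.05. The list also holds genes such as Per3, Max and Ldb1, so these shares are not of known lineage drivers only. Gfi1, a repressor that favours granulocytes, read 6.22 and 6.17. Cebpe, the C/EBP factor of secondary granule genes, read 6.14 and 6.11, Cebpd 5.61 and 5.67, and Cebpb 5.36 and 5.50. Cebpa, which founds the granulocyte-monocyte lineage, read 3.46 and 3.23. Spi1, the gene of PU.1, read 1.77 and 1.77, and Runx1 3.65 and 3.68. Myb, needed by proliferating progenitors, read 6.11 and 6.15, and Cbfb, the partner of the Runx factors, 5.35 and 5.55. Nfe2, better known from megakaryocytes, read 5.04 and 5.11. Gfi1b, the erythroid relative of Gfi1, and Ikzf2 were the members read on neither array, and the Gfi1b probe was above background on all 4 other arrays.

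Irf8 itself was not silent on the array. Its single probe (A_52_P354823) read 0.49 and 0.64, well above background on both arrays, although the line came from a knockout mouse. The sources used here do not place the probe relative to the deleted stretch, so this value neither checks the knockout nor shows a working transcript. The other members of its family lay on both sides. Irf3, which acts in antiviral signalling, read 4.69 and 4.84. Irf1, an interferon-induced member, read 1.92 and 2.21 by 1 probe, and its second probe was read on neither array. Irf9, a subunit of the interferon-activated complex ISGF3, read -0.06 and 0.13, and Irf2, which often opposes Irf1, -0.34 and -0.30. Irf5, a factor of inflammatory macrophages, read -2.04 and -2.62. Irf7, the amplifier of type I interferon, was above background on 1 array (-4.61 and -4.87). Irf4, the closest relative of Irf8, was read on neither, and its probe was above background on all 4 other arrays. In all 7 of 9 members were detected on both arrays (77.8%) and 3 lay above the 75th percentile, Irf3, Irf1 and Irf8.

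Factors of monocyte and dendritic cell differentiation lay near the rate of all genes: 23 of 34 were detected on both arrays (67.6%) and 14 lay above the 75th percentile (41.2%, against 40.1% of all genes). Klf4, a monocyte factor, was detected and dim, at -1.62 and -1.28. Tfec, a relative of Mitf found in macrophages, read 4.24 and 4.10, Batf 3.61 and 3.69, and Jdp2, a partner of the AP-1 factors, 3.10 and 3.35. Maf, which stabilises the macrophage state, was read on neither array, and its probe was above background on 3 of the other 4. Rel and Ahr were dark here and on all 4 of the others. Batf3, required for cross-presenting dendritic cells, was detected and dim (-3.93 and -3.37).

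Receptors for myeloid growth factors were read next, since the cells lived on GM-CSF. Csf2ra, the GM-CSF receptor's own alpha chain, read 5.26 and 5.44. Csf2rb, the beta chain shared with the receptors of interleukin 3 and interleukin 5, read 5.38 and 5.41, and its second probe 2.09 and 1.89. Csf2rb2, the mouse-specific beta chain for interleukin 3, read 2.46 and 2.57, and Il3ra, the alpha chain for interleukin 3, 3.81 and 3.82. All parts of the GM-CSF and interleukin 3 receptors were therefore above the 75th percentile on both arrays, and the gap between the arrays was at most 0.18 over the detected members of the list. Csf3r, the receptor of granulocyte colony-stimulating factor, gave the brightest probe of the list at 6.74 and 6.60. Csf1r, the receptor of macrophage colony-stimulating factor, read 1.09 and 1.24 by its brightest probe, while its other probes read -1.44 and -1.34, and -3.16 and -2.99. Epor, the erythropoietin receptor, read 0.86 and 0.98.

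The receptors of earlier progenitors were dim or dark. Kit, the receptor of stem cell factor, was at background on both arrays (-6.51 and -6.36), and its only probe was dark on the other 4 arrays, so these data do not show that the probe can read Kit. Flt3, a receptor of multipotent and dendritic progenitors, was above background on replicate 2 alone (-4.57 and -3.99). Il5ra, of eosinophil precursors, was read on neither array. In all 8 of 11 receptors were detected on both arrays (72.7%) and 7 lay above the 75th percentile (63.6%).

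**Figure D3:**
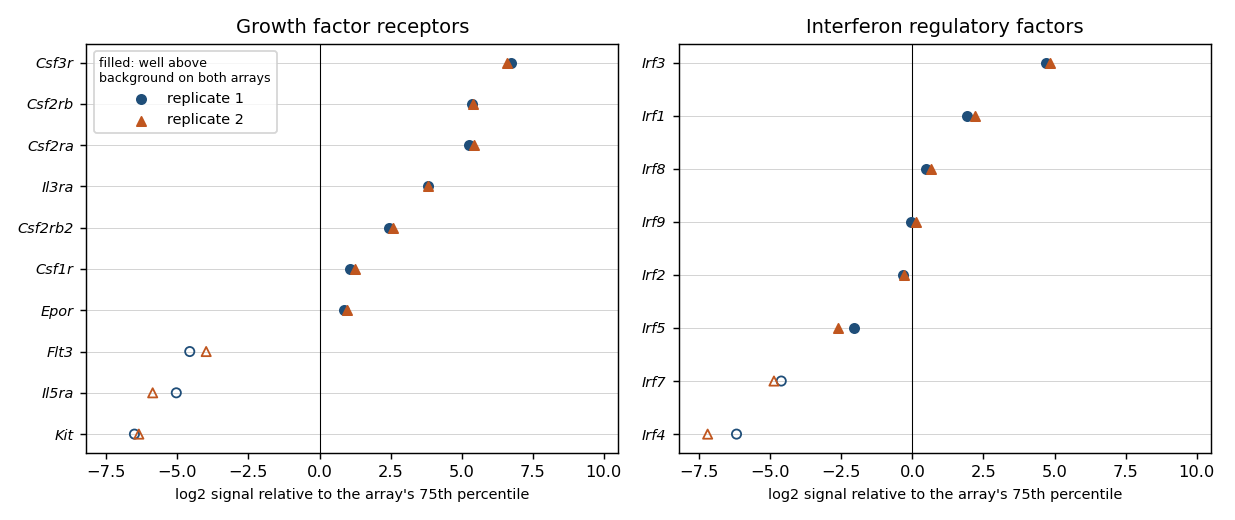
Log2 signal relative to the array's 75th percentile (horizontal) of 10 of the 11 growth factor receptors (left) and 8 of the 9 interferon regulatory factors (right) on the control arrays, with circles for replicate 1, triangles for replicate 2, and filled marks where both arrays were well above background. Csf3r, Csf2rb and Csf2ra lie between 5.26 and 6.74, Kit and Il5ra are open on both arrays, and Irf8 lies at 0.49 and 0.64.

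Downstream of these receptors, the Janus kinase and STAT genes were read almost throughout: 27 of 28 passed on both arrays and 24 lay above the 75th percentile (85.7%). Jak2, the kinase that the GM-CSF receptor uses, read 2.00 and 2.34, Stat5a 2.05 and 2.14, and Stat5b 2.50 and 3.04. Their feedback target Cish, a suppressor of cytokine signalling, read 4.36 and 4.51, and the survival gene Mcl1 4.62 and 4.57.

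Of the wider set of 31 cytokine receptors 23 were detected on both arrays (74.2%, against 58.9% of all genes) and 17 lay above the 75th percentile (54.8%, against 40.1%). Ifngr1, a chain of the interferon gamma receptor, read 5.36 and 5.47, and Ifngr2 3.09 and 3.08. Ifnar2 of the type I interferon receptor read 3.66 and 3.85, and Tnfrsf1a, a receptor of tumour necrosis factor, 3.90 and 4.25. The cells thus gave signal for receptors of interferons and tumour necrosis factor. Among those read on neither array were Il7r, Il1rl1, Il2ra, Il1r1 and Osmr. The probes for Il7r and Il1rl1 were above background on all 4 other arrays.

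Interferon response genes lay near the shares of all genes. Of 37 members 25 were detected on both arrays (67.6%, against 58.9%) and 18 lay above the 75th percentile (48.6%, against 40.1%). Ifitm1, an antiviral membrane protein, read 6.54 and 6.78, Ifitm2 4.91 and 5.11, Ifi27 5.13 and 5.18, and Bst2, which tethers virions, 4.87 and 4.75. Oas1a read 3.28 and 3.52. Others that interferon is known to induce, Usp18, Gbp2, Rsad2, Oas3, Oasl2, Ifi44 and Ifit1, were read on neither array, and for all but Ifit1 the probe was above background on at least 1 of the other 4.

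Genes of monocytes and macrophages lay at the rate of all genes: 38 of 60 were detected on both arrays (63.3% against 58.9%) and 24 lay above the 75th percentile (40.0% against 40.1%). Beside Ly6c1, bright members were Plac8, a protein of myeloid and plasmacytoid cells, at 8.59 and 8.37, the lysosomal protease Ctsd at 5.76 and 5.69, Ctsb at 4.91 and 5.16 and Ctsl at 4.51 and 4.65. The chemokine Ccl9 read 5.17 and 5.25, and F13a1, of coagulation factor XIII, 4.31 and 4.42. Itgam, the integrin chain CD11b, read 4.28 and 3.75, with other probes at 0.62 and 0.52 and at -2.36 and -2.48. Cd14, a co-receptor for lipopolysaccharide, read 3.01 and 2.89. Ms4a4c, a monocyte membrane gene, read 5.48 and 6.27 by 1 probe, and its other 2 probes were at background.

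Members of the list known from mature macrophages lay on both sides of the call, and some of those named here were chosen after their values had been seen. Lgals3, of the lectin galectin 3, read 3.37 and 3.75, Mpeg1, of the pore-forming perforin 2, 1.76 and 1.78, and Apoe, of apolipoprotein E, 1.48 and 1.69. Dimmer members were detected too. Adgre1, an adhesion receptor of macrophages, read -0.41 and -0.01, Mrc1, the mannose receptor, -1.10 and -0.96, and Ccr2, the chemokine receptor of classical monocytes, -1.99 and -1.99. Read on neither array were Cx3cr1, Ctss (cathepsin S), Msr1 (a scavenger receptor), Lgmn (a lysosomal protease), Axl and Mertk (receptors for dying cells), C1qa and C1qc (complement), and Gpnmb, while C1qb was detected on both arrays at -2.40 and -2.74. Of the 18 members read on neither array, 13 were above background on at least 1 of the other arrays, with Ctss, Msr1, Lgmn, Gpnmb, Cx3cr1 and Ccl2 read on all 4, so those probes can give a signal. Cd36, a scavenger receptor, differed between the arrays, at background on replicate 1 (-6.48) and at -1.91 on replicate 2.

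Dendritic cell and antigen presentation genes fell below the rate of all genes. Of 32 dendritic cell genes 14 were detected on both arrays (43.8%) and 7 lay above the 75th percentile (21.9%). Siglech, a lectin of plasmacytoid dendritic cells, read 6.68 and 6.46, but its second probe was at background on both arrays, so the gene's level rests on which probe is read. Wdfy4, which serves cross-presentation, read 5.13 and 5.14 with both probes detected. Cd24a read 5.16 and 5.32. Itgax (CD11c), Xcr1, Clec9a, Ccr7, Cd40, Cd83, Cd86 and Cd209a were read on neither array. Of the 14 such members 12 were above background on at least 1 of the other arrays, and Itgax and Cd40 on all 4.

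Among 11 MHC class II genes 5 were detected on both arrays (45.5%, against 58.9% of all genes). H2-DMb1, a peptide-loading chain, was the only one above the 75th percentile (1.84 and 1.95). That is 9.09% of the list, against 40.1% of all genes. The chains that present peptide, H2-Aa, H2-Ab1 and H2-Eb1, were read on neither array, and their probes were above background on 2, 4 and 2 of the other arrays. Cd74, the invariant chain, was detected and dim at -3.10 and -3.59, as was Ciita, the master regulator of the class, at -3.74 and -4.56.

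**Figure D4:**
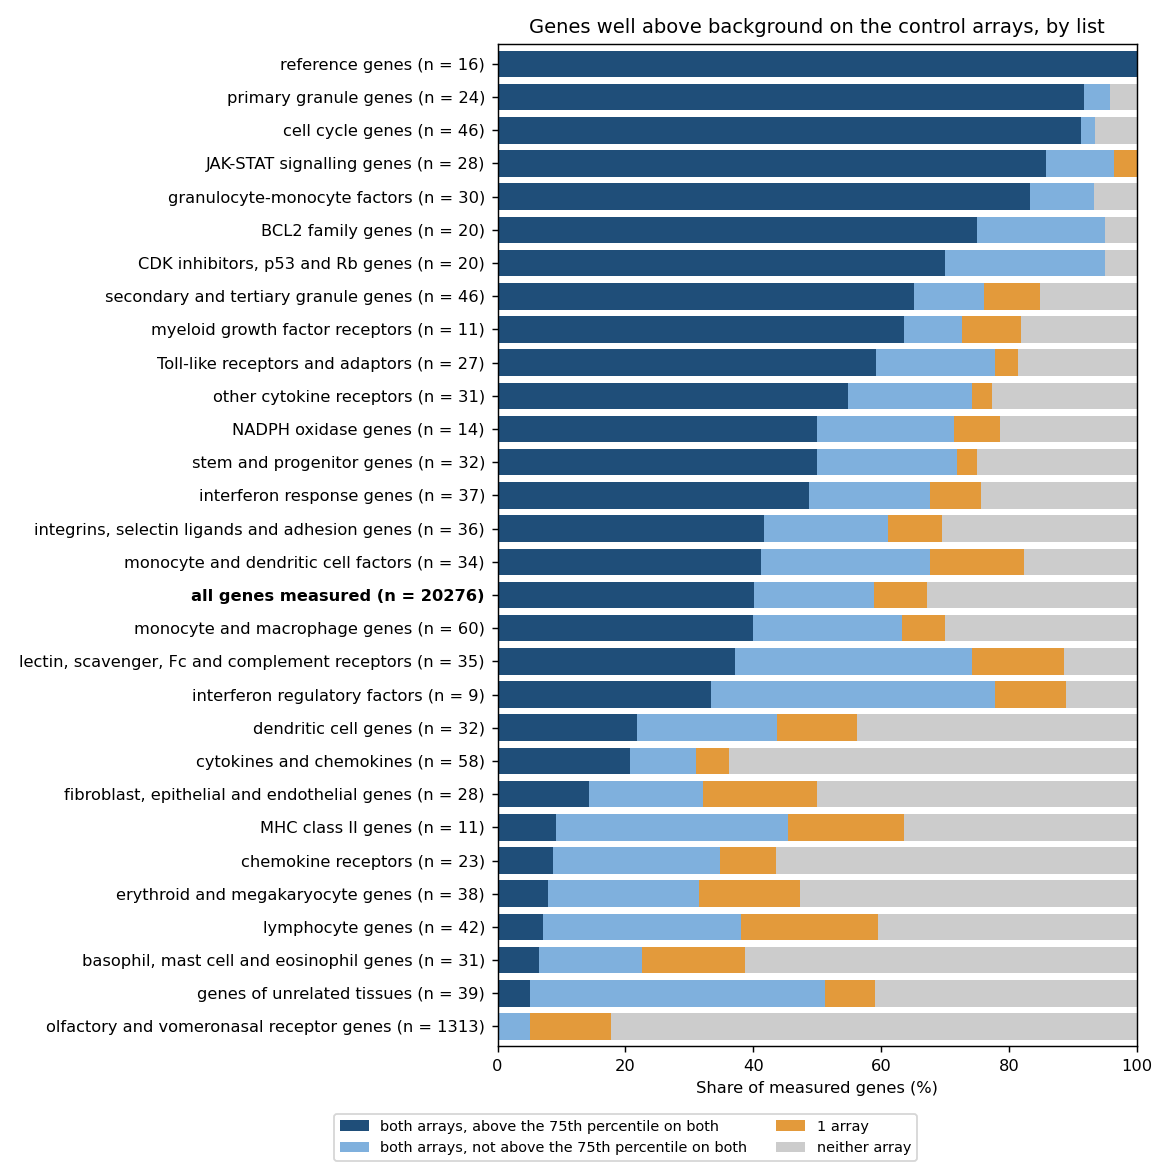
Share of measured genes (horizontal, %) of each list that was well above background on both control arrays and above the 75th percentile on both (dark blue), on both but not above it (light blue), on 1 array (orange) or on neither (grey), sorted by the dark share. Reference, primary granule and cell cycle genes stand at the top, all 20276 genes at 40.1% dark blue, and lymphoid, mast cell, erythroid and olfactory receptor genes at the bottom.

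Stem and progenitor genes gave a mixed reading, with 23 of 32 on both arrays (71.9%) and 16 above the 75th percentile. Lyl1 read 7.21 and 7.17, Lmo2 5.29 and 5.42, and Tal1 2.26 and 2.38, all of them factors of blood stem cells. Spn, the sialomucin CD43, read 5.43 and 5.47, Prom1 4.25 and 4.55, and Myc 4.20 and 3.95. Cd34, Erg, Mecom, Gata2, Slamf1, Mycn, Angpt1 and Tek were read on neither array, and of these only Mecom was above background on any of the other 4. Other surface genes of the list were detected on both arrays, Cd48 at 3.17 and 3.41, Procr at 0.58 and 0.61, and Ly6a at -0.76 and -0.82.

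The Hox clusters were added to the lists after the values had been seen. The Hoxa genes, active in myeloid progenitors, were detected on both arrays for 9 of 11 (81.8%, against 58.9% of all genes), and 4 (36.4%, against 40.1%) lay above the 75th percentile, Hoxa11 (3.73 and 3.99), Hoxa7 (2.63 and 2.47) and Hoxa10 (0.86 and 0.74) among them, with Hoxa9 at 0.03 and -0.14. Hoxb genes were detected for 3 of 10, of which Hoxb4 (0.92 and 1.25) was the only one above the 75th percentile. None of 9 Hoxc and none of 9 Hoxd genes passed on both arrays, whereas 2 Hoxc genes passed on replicate 2 and 1 Hoxd gene on replicate 1. Of the 6 Gata factors, also added afterwards, Gata5 was the one detected (0.26 and 0.08), while Gata1, Gata2 and Gata3 of the blood lineages were read on neither.

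Genes of other blood lineages were mostly below the rate of all genes. Of 31 basophil, mast cell and eosinophil genes 7 were detected on both arrays (22.6%) and 2 lay above the 75th percentile. Those 2 were Fcer1g (5.95 and 6.02), an Fc receptor chain shared by many myeloid cells, and Mcpt8 (1.97 and 2.04), a basophil protease. By the call on replicate 2, whatever replicate 1 showed, 11 passed. Cpa3, Fcer1a, Ms4a2, Prg2 and Gata1 were read on neither. Of 38 erythroid and megakaryocyte genes 12 were detected on both arrays (31.6%) and 3 lay above the 75th percentile, among them the transferrin receptor Tfrc (4.10 and 4.21), which all dividing cells use. Pf4, Itga2b, Alas2 and Hbb-bs were read on neither.

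Of 42 lymphocyte genes 16 were detected on both arrays (38.1%) and 3 lay above the 75th percentile. Lck, a kinase of T cells, read 1.89 and 2.20, Cd28, a T cell costimulator, 0.65 and 0.99, and Cd4 1.62 and 1.34 by 1 probe with its second probe at background. Cd3e lay at the 75th percentile (0.15 and -0.14), and Cd3g, Ms4a1, Rag1, Rag2, Ebf1 and Ncr1 were read on neither array. Of 28 fibroblast, epithelial and endothelial genes 9 were detected on both arrays (32.1%) and 4 lay above the 75th percentile. Of those 4, Vim (5.20 and 5.23), of vimentin, is also made by blood cells. By the call on replicate 2, whatever replicate 1 showed, 14 passed. Kdr read 3.44 and 2.92 by 1 probe, and its second probe was at background. Dcn, Lum, Postn, Pdgfra, Cdh1 and Krt8 were read on neither array.

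Phagocytes sense microbes through Toll-like receptors. Of 27 such receptors and adaptors 21 were detected on both arrays (77.8%, against 58.9% of all genes) and 16 lay above the 75th percentile (59.3%, against 40.1%). Adaptors and accessory genes were the brightest members, so these shares are not those of the Toll-like receptors alone. The adaptor Myd88 read 3.61 and 3.82, and Unc93b1, which carries receptors to endosomes, 3.96 and 3.78. Tlr2 read 1.39 and 1.54, Tlr4 1.26 and 1.19, and Tlr9 1.13 and 0.99. Ly96, the partner that Tlr4 needs to bind lipopolysaccharide, was dim at -2.26 and -2.39. Tlr1 (-2.64 and -2.25) and Tlr13 (-2.94 and -2.61) were dim too. Tlr3, Tlr5 and Tlr8 were read on neither array and on none of the other 4. Tlr11 and Tlr12 were also read on neither, and their probes were above background on 2 of the other 4.

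Of 35 lectin, scavenger, Fc and complement receptors 26 were detected on both arrays (74.3%) and 13 lay above the 75th percentile (37.1%). Tyrobp, an adaptor with an activating motif, read 7.06 and 6.93, and Fcgr2b and Fcgr3, receptors for immunoglobulin G, 3.60 and 3.50, and 3.10 and 3.05. The phagocyte NADPH oxidase makes the respiratory burst, and the list used also holds genes of other oxidases, such as Nox3 and Duox1. In that list 10 of 14 genes were detected on both arrays (71.4%, against 58.9% of all genes). Above the 75th percentile lay 7 (50%, against 40.1%). Rap1a, Nox3 and Duox1 were read on neither array. Cyba, the small membrane subunit, read 7.78 and 7.62, and the cytosolic subunits Ncf4 and Ncf1 6.27 and 6.29, and 4.39 and 4.54. Cybb, the catalytic subunit, read -0.37 and -0.34. The subunits thus lay on both sides of the 75th percentile, each by its own probe.

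Chemokine receptors and cytokines were mostly dark. Of 23 chemokine receptors 8 were detected on both arrays (34.8%), and Cxcr4, which holds cells in the marrow, was above the 75th percentile (1.53 and 1.48), as was Ccr10 (0.04 and 0.47). Of 58 cytokines and chemokines 18 were detected on both arrays (31.0%) and 12 lay above the 75th percentile. Mif read 8.46 and 8.21, Ccl9 as above, Tgfb1 4.28 and 4.28, Vegfa 3.27 and 3.41, and Tnf 1.36 and 1.56. Il1b, Il6, Il10, Il1a, Csf1, Csf2 and Csf3 were read on neither array. The Il1b and Csf1 probes were above background on all 4 other arrays, whereas those for Il10, Csf2 and Csf3 were dark on all of them.

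Adhesion genes followed the rate of all genes, with 22 of 36 on both arrays (61.1%) and 15 above the 75th percentile (41.7%). Cd47, the signal that spares cells from phagocytosis, read 7.37 and 7.33, Tln1, of the integrin activator talin, 6.08 and 6.32, and Icam2 4.58 and 5.29. Itgb2, the beta chain of the leukocyte integrins, read 3.27 and 3.51, and Itga4 3.77 and 4.17.

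Genes of the cell cycle were read almost throughout: 43 of 46 cell cycle genes were detected on both arrays (93.5%) and 42 lay above the 75th percentile (91.3%). Mcm6, a subunit of the replicative helicase, read 7.67 and 7.57, Birc5, of the chromosomal passenger complex, 6.63 and 6.68, Pcna 6.15 and 6.38, and Cdc20, an activator of the anaphase-promoting complex, 6.07 and 6.18. The kinase gene Cdk4 read 6.48 and 6.55 and Rrm2, which supplies deoxynucleotides, 6.28 and 6.25. Aurkb, a kinase of the same passenger complex as Birc5, and Ccne2 were read on neither control array and on none of the other 4. A dark probe does not show that the RNA is absent, and no array of the series shows that these probes can give a signal. Ccnd1 was also read on neither, and its probe was above background on all 4 other arrays.

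CDK inhibitor, p53 and Rb genes were detected on both arrays for 19 of 20 (95%, against 58.9% of all genes). Above the 75th percentile lay 14 (70%, against 40.1%). The list also holds genes that do not themselves brake division, such as Bax and Mdm2. Cdkn1a, a p53-induced inhibitor, read 3.66 and 3.80, the p53 target Bax 5.34 and 5.30, and Mdm2, which degrades p53, 4.58 and 4.78. Cdkn2a read 2.42 and 2.23, with a second probe at -1.87 and -2.28. Cdkn1c was read on neither. Of 20 BCL2 family genes 19 were detected on both arrays (95%) and 15 lay above the 75th percentile (75%). The brightest were Bax, Bcl2a1d (5.10 and 5.21), Bak1 (4.96 and 5.09) and Bad (4.68 and 4.73). Bcl2 itself read 1.14 and 0.82. All 16 reference genes were above the 75th percentile, among them Actb (9.10 and 8.62) and Gapdh, whose 7 probes ran from 6.21 to 8.94 on replicate 1.

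The brightest probes of all were a mixture. Of the 100 brightest genes 44 encode ribosomal proteins and 9 encode H2A histones, whose near-identical sequences may be read by shared probes. Leaving out ribosomal proteins and clone names, the first places went to H2ac12 (9.74 and 9.18), Ctsg, Tuba1b (9.46 and 9.04), Exosc2 (9.35 and 9.04), H2ac10 (9.42 and 8.92), Kctd14 (9.40 and 8.88), H2aj (9.41 and 8.86), Glrx2 (9.38 and 8.83), Mpo, Slc10a1 (9.34 and 8.73) and Milr1 (9.16 and 8.80). Zfp628, Aldoa, Elk1 and Rack1, with H2ac15, H2ac19, H2ac20, H2ac22 and Actb, completed the 20. Ctsg and Mpo were the granule genes in that company.

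Several of these ranks rested on a single probe of a gene whose other probes read far lower. Slc10a1, a bile acid transporter of liver, read 9.34 and 8.73 by 1 probe and -6.37 and -6.05 by the other. Kctd14 had 3 probes, at 9.40 and 8.88, at -4.44 and -4.66, and at -6.22 and -7.20. Elk1 read 9.12 and 8.58, and by its second probe -4.21 and -4.46. Among the 61 of the top 100 with several probes, 5 had a probe read on neither array (Kctd14, Glrx2, Slc10a1, Pbld1 and Sprr2a2) and 10 had probes over 10 apart on the log2 scale. The same held for Siglech, Kdr, Ms4a4c and Cd4 above, while the probes of Camp, Gapdh and Ly6c1 were all bright. Over the 5402 genes with several probes, 3009 had all of them detected on both arrays, 979 had none detected on either, and 623 (11.5%) had at least 1 probe of each kind. Which transcript each probe reads is not given in the sources used here.

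**Figure D5:**
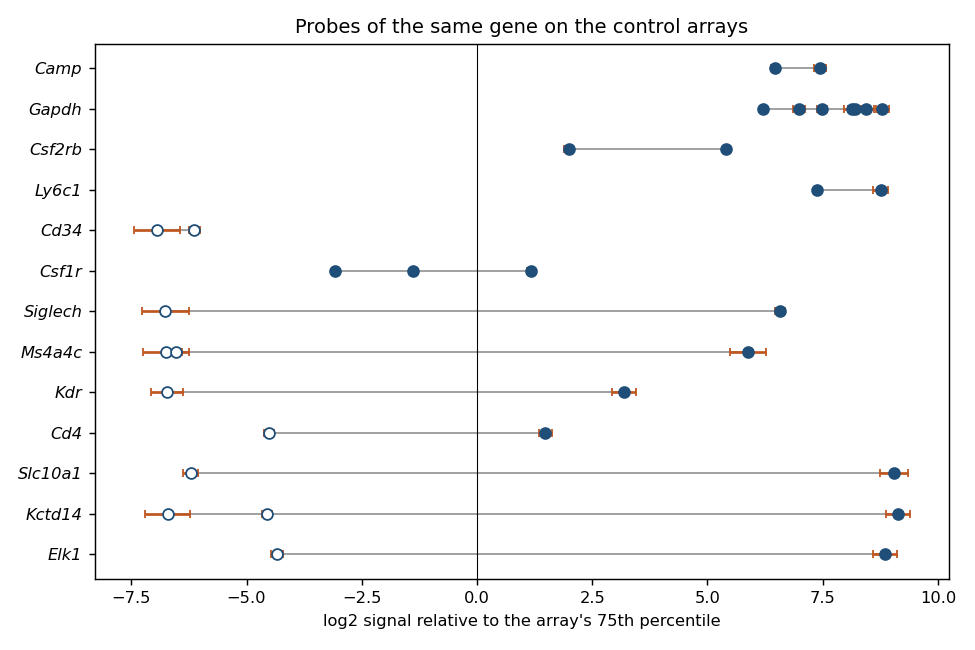
Mean log2 signal relative to the array's 75th percentile (horizontal) of every probe of 13 genes on the control arrays, with orange bars from the lower to the higher of the 2 arrays and filled points for probes well above background on both. The probes of Camp, Gapdh, Csf2rb and Ly6c1 are all filled, those of Cd34 are both open, and Siglech, Ms4a4c, Kdr, Cd4, Slc10a1, Kctd14 and Elk1 each have 1 filled probe and at least 1 open one.

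The 2 experiments agreed closely on most genes. Over the 11952 genes detected on both arrays the log2 signals correlated at r = 0.993 across genes, which are not independent replicates, and the median gap between the arrays was 0.16 in size, a median SD of 0.11 (n = 2). Among the 200 brightest genes 189 were lower in replicate 2, Mpo and Ctsg among them. The median of replicate 2 minus replicate 1 was -0.30 over all 200, and 0.09 over the 11952 genes. A gap of at least 2-fold was found for 29 genes higher in replicate 2 (0.243%) and 127 lower (1.06%). Of the 506 listed genes detected on both arrays, 467 (92.3%) lay within 0.5 on the log2 scale and 4 were at least 2-fold apart: Ace, Epcam, Il10ra and Ins1. Il10ra, the interleukin 10 receptor, read -0.68 and -2.86.

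The widest gaps belonged to single genes. Vmp1, an autophagy gene, read 3.47 and 8.03. Asic4 read 0.59 and -4.78, Odf4 0.09 and -4.67, Pianp -0.92 and -5.13, Prickle2 -0.66 and -4.79, and Epcam -0.97 and -4.83. For Vmp1 the gap between replicates 2 and 1 was 0.15 in each of the other groups. Of the 127 genes that were lower in control replicate 2, 10 showed a gap of that size in the same direction between the arrays of the IRF8 vector and 9 between those of the KLF4 vector, and of the 29 that were higher, 2 and 1 did. A gap of the same sign, whatever its size, takes in those genes too. It was found for 20 of 28 and 23 of 29 of the higher genes in the IRF8 and KLF4 pairs, and for 62 and 84 of the 127 lower genes. The share over all detected genes was not computed. These counts therefore do not show whether gaps recur between the experiments.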

How the data were processed

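Cy3-labelled RNA of each sample was hybridised to a single-colour Agilent mouse array of 62976 spots, and the 2 control-vector arrays are described. Per the file headers, the deposited scanner values are intensity on a linear scale, from which Agilent Feature Extraction (version 10.7.3.1, grid annotated for mm9) had subtracted the background of each array. The deposited value table holds intensity too; its columns for these arrays were the processed signal times 1.09 and 0.708, to within 1% for 55507 and 55513 probes, with column medians of 27.6 and 28.2, and it was used as an alternative.

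Control spots were left out, spots that the software marked as uneven or outlying were dropped, spots of a probe were averaged, and log2 signal minus the array's 75th percentile (intensity 551 and 852) was taken. Of 55681 probes, 28390 were named by a RefSeq-style accession: 26762 could be matched to a gene of the RefSeq table (GRCm38.p6) and 1628 could not. Probes of unmatched genes, among them Ly6c2, are not analysed here. The brightest probe over the 2 control arrays stood for a gene, and above background means the software's call on every spot of the probe. No test was made, since there is 1 group of 2 arrays, and the number of arrays limits the precision.

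The arrays, the 28 gene lists and the rule for named genes were chosen with earlier results of these data known. That rule takes the 4 markers; Irf8, Klf4, Gapdh and Actb; the 20 brightest genes without ribosomal proteins, clones and predicted names; up to 8 of the brightest members and up to 8 dark members of every list; all growth factor receptors and interferon regulatory factors; and the 10 widest gaps in each direction. Ace, Adgre1, Apoe, Axl, Batf3, Bcl2, C1qb, C1qc, Ccl2, Cd177, Cd36, Cd40, Cd48, Cd86, Cdh1, Cebpa, Csf1, Csf2, Csf3, Ctsc, Ctss, Fcgr3, Il10ra, Ins1, Itga4, Itgb2, Jak2, Krt8, Lcn2, Lgals3, Lgmn, Ltb4r1, Ly6a, Ly96, Lyz2, Mertk, Mmp9, Mpeg1, Mrc1, Oas1a, Padi4, Pbld1, Prg2, Procr, Retnlg, Runx1, Spi1, Sprr2a2, Stat5a, Stat5b, Tlr2, Tlr4, Tlr9 and Trem1, with the Hox and Gata families, were named after their values had been seen. Motifs came from a script over the RefSeq promoter table. The choice of probe and the gap count were checked on simulated arrays. Normexp (limma 3.58.1 in R 4.3.3, offset 50) was planned on mean spot signals. The scanner values do not hold these, so median spot and background signals were used instead. Tables were made with Python 3.11.15, pandas 2.3.3 and numpy 2.4.6, and figures with matplotlib 3.10.9. Other scalings, detection calls and probe rules were tried as alternatives. Some genes that the rule would name are not reported here and stay in every count.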

Additional observations from a re-analysis of the deposited data

How the results depend on the processing

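The count of genes detected on both control arrays, 11952, stayed within 1.5 times of that value under every alternative run: 8126 above the 75th percentile, a call added after seeing the data, 11009 when every probe of a gene had to pass, 11955 when any probe could, 11931 with the probe brightest over all 6 arrays, 11233 with a floor at 2 times the lowest signal, 13627 on at least 1 array, and 14611 by the software's weaker call of a positive and significant signal. By the call on a single array, whatever the other showed, it was 12206 to 13373. Of the 34 lists and families, none moved by over 1.5 times when any or every probe was used, 9 did with the weaker call and 15 above the 75th percentile, among them the monocyte and macrophage genes (38 to 24) and the lymphocyte genes (16 to 3). The count of genes at least 2-fold apart between the control arrays, 156, was 91 with normexp, 751 when 1 array above background was enough, 2502 with no filter on dim probes and 99 over genes with 1 probe, a setting added after seeing the data. It was 155 to 165 with median or quantile scaling, the deposited table or the mean of a gene's probes, and 225 with spike-in scaling, which also moved the median gap from 0.09 to 0.37 and the split from 29 higher and 127 lower in replicate 2 to 134 higher and 91 lower; the cause was not tested. Levels and percentile ranks of the 390 named genes moved by more than the SD between the arrays for 282 and 223 genes with normexp and for 82 and 240 with the mean of a gene's probes. Scaling to the array median, which sets another zero, moved the level of all 390. Leaving out replicate 2 moved the percentile rank of 141 genes and leaving out replicate 1 that of 42. With an array left out there is no value for the gap between the arrays. No paired analysis was possible because the values come from no test and from a single group. Signal over background limits every statement on dark genes.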

Other observations

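Probes that could not be matched to a gene also gave signal. Of 28906 such probes 9754 (33.7%) were well above background on both control arrays, and 130 were brighter than the 100th of the named genes. They are not named here. Of the 6649 named genes read on neither control array, 1145 (17.2%) were above background on at least 1 of the other 4 arrays of the series. For the other dark genes these arrays do not show whether the probe can give a signal.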
